A study of Mus musculus with 28 samples.

Results

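The genes described here are 58 named members of the endoplasmic reticulum (ER) machinery that imports, folds, glycosylates, quality-controls and exports secretory proteins, with the sensors of the unfolded protein response that adjust it. They were named by gene symbol, for their roles in this machinery, among the 24421 genes counted in each library. Earlier results of these data were known when they were chosen. All 58 passed the filter on low counts that left 13159 genes for testing. They were grouped by functional step into 7 stress sensors and transcription factors, 8 Hsp70 and Hsp90 chaperones and co-chaperones, 2 lectin chaperones, 8 disulfide isomerases and thiol oxidoreductases, 12 translocon and signal peptidase subunits, 7 oligosaccharyl transferase subunits, 9 factors of ER-associated degradation and 5 factors of ER to Golgi transport and retrieval.

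Secretory and membrane proteins enter the ER through the Sec61 translocon, are cut by signal peptidase, receive N-linked glycans from oligosaccharyl transferase, and fold with the help of BiP (Hspa5), calreticulin, calnexin and protein disulfide isomerases. When unfolded proteins build up, the sensors IRE1 (Ern1), ATF6 and PERK (Eif2ak3) signal to the nucleus: IRE1 splices the Xbp1 mRNA so that it encodes an active transcription factor for ER genes, cleaved ATF6 acts on chaperone promoters, and PERK slows translation and favours that of Atf4. Plasmacytoid dendritic cells (pDC) are secretory cells with a prominent rough ER and make type I interferon, and conventional type 1 dendritic cells (cDC1) are known for basal IRE1 and XBP1 activity and for cross-presentation of antigen. Gene counts of the kind used here do not separate spliced from unspliced Xbp1 mRNA, so the levels below are those of total Xbp1 mRNA.

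RNA was sequenced from dendritic cells sorted from the spleens of untreated C57Bl/6 mice of 6 to 12 weeks, in 28 libraries. Control pDC, control cDC1 and control cDC2 (conventional type 2 dendritic cells) came from Irf8fl/fl mice, which carry floxed alleles of the transcription factor gene Irf8, with 8 libraries each. The fourth group, TG pDC, came from Irf8fl/fl Itgax-cre animals and held 4 libraries; there Cre is driven by Itgax (CD11c) regulatory sequences and so acts in cells that express CD11c. All 4 groups share the floxed alleles and only the TG pDC carry Cre, and cDC of Cre mice were not analysed here. The series' description speaks of 4 replicates, while 8 control libraries per population were analysed here, and no 2 libraries of a group agreed within sampling noise (a chi-square per degree of freedom of at least 33.6). The gates of the pDC sort are not given in the sources used here, nor whether each library is a separate mouse, so the p-values measure the spread between libraries. In bulk libraries, fewer cells of a type that makes a transcript and less of it per cell cannot be told apart.

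Each library held 17299285 to 30787679 counts assigned to genes. Levels are given as CPM, counts scaled to a common library size by edgeR's TMM method. Irf8 lay at 6145 ± 459 CPM (SD, n = 8) in control pDC and at 1461 ± 257 CPM (SD, n = 4) in TG pDC, 23.8% of the control, with no overlap of libraries, and gene-level counts do not separate the floxed exon from the rest of the mRNA. The 12 pDC markers summed to 10993 to 14406 CPM in TG pDC and 11918 to 15296 CPM in control pDC, against at most 643 CPM in either cDC group. Within that list 4 genes were lower in TG pDC (Cd209d, Klk1, Lair1 and Bst2, log2 -2.80, -2.15, -1.25 and -0.64) and 1 was higher (Cox6a2, log2 1.42), and Ly6d, at 2904 CPM in control and 4257 CPM in TG pDC, held a large share of the sum. The 9 plasma cell markers, cells whose ER genes are very high, summed to 401 to 614 CPM in control pDC and 1732 to 1995 CPM in TG pDC. Of the 7 that could be tested, 4 were higher in TG pDC: Sdc1 went from 51.2 ± 9.81 CPM to 1108 ± 160.2 CPM, Prdm1 from 6.18 ± 2.15 CPM to 63.9 ± 11.8 CPM, Irf4 from 146 ± 55.5 CPM to 434 ± 86.2 CPM and Slamf7 from 41.6 ± 10.2 CPM to 87.5 ± 9.54 CPM. Mzb1, an ER-resident cochaperone of plasma cells and pDC that is also counted below among the other folding factors, was lower, at 197 ± 57.2 CPM in control and 40.1 ± 23.5 CPM in TG pDC. Tnfrsf17, a receptor of plasma cells, lay at 0.0247 CPM in control and 0.196 CPM in TG pDC. The 9 B cell markers summed to 72.1 to 128 CPM in control pDC and 199.9 to 246 CPM in TG pDC, and the 7 T cell markers to 3.12 to 12.4 and 20.6 to 27.9 CPM. TG pDC library 4 held 199 CPM of 10 neutrophil markers, against 0.23 to 4.59 CPM in the other TG pDC libraries and 0.195 to 2.62 CPM in control pDC. The part of these markers in the results below was not tested.

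TG and control pDC were compared to ask which genes differ once Irf8 is deleted by Itgax-cre, and a majority of the ER genes were lower, with genes of all 8 steps among them. In edgeR's quasi-likelihood fit, at a Benjamini-Hochberg adjusted p below 0.05 over all genes, 35 of the 58 genes were lower and 0 were higher, against 7.04% lower and 7.72% higher among all 13159 genes. At an unadjusted p below 0.05, 1 gene (Atf6) was higher, and DESeq2 also called 0 higher, with 40 lower. Without TG pDC library 4, 31 genes were lower, as Dnajc3, Txndc11, Ssr4 (log2 -0.52, adjusted p = 0.0586), Derl1 (log2 -0.22, adjusted p = 0.0771) and Kdelr2 (log2 -0.28, adjusted p = 0.171) lost the call and Sec61b (log2 -0.73, adjusted p = 0.0351) gained it. The median log2 difference over the 58 genes was -0.40, beside 0 over all genes, and 54 of the 58 differences were below 0. The libraries of the TG and control pDC did not overlap for 24 of the 58 genes (41.4%), and for 9.71% of all genes. Most differences were under 2-fold: 5 of the 35 genes were lower by 2-fold or more, namely Txndc5, Sec24d, Eif2ak3, Edem2 and Derl3, with Xbp1 just short of it. Over all genes, 306 of the 927 lower genes were lower by 2-fold or more. Derl3 had few counts in TG pDC, as given below. Of the genes given library by library below, Eif2ak3, Creld2, Sec61b, Sec61g, Dad1, Krtcap2, Derl3 and Herpud1 were chosen after their values were seen. Sdf2l1, given by group means, was also chosen in that way. Summed over the 58 genes, control pDC held 19088 ± 879 CPM (SD, n = 8) and TG pDC 13476 ± 666 CPM (SD, n = 4), 70.6% of the control. The 4 TG pDC sums, 12497 to 13913 CPM, all lay below the control range of 17634 to 20481 CPM.

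**Figure D1:**
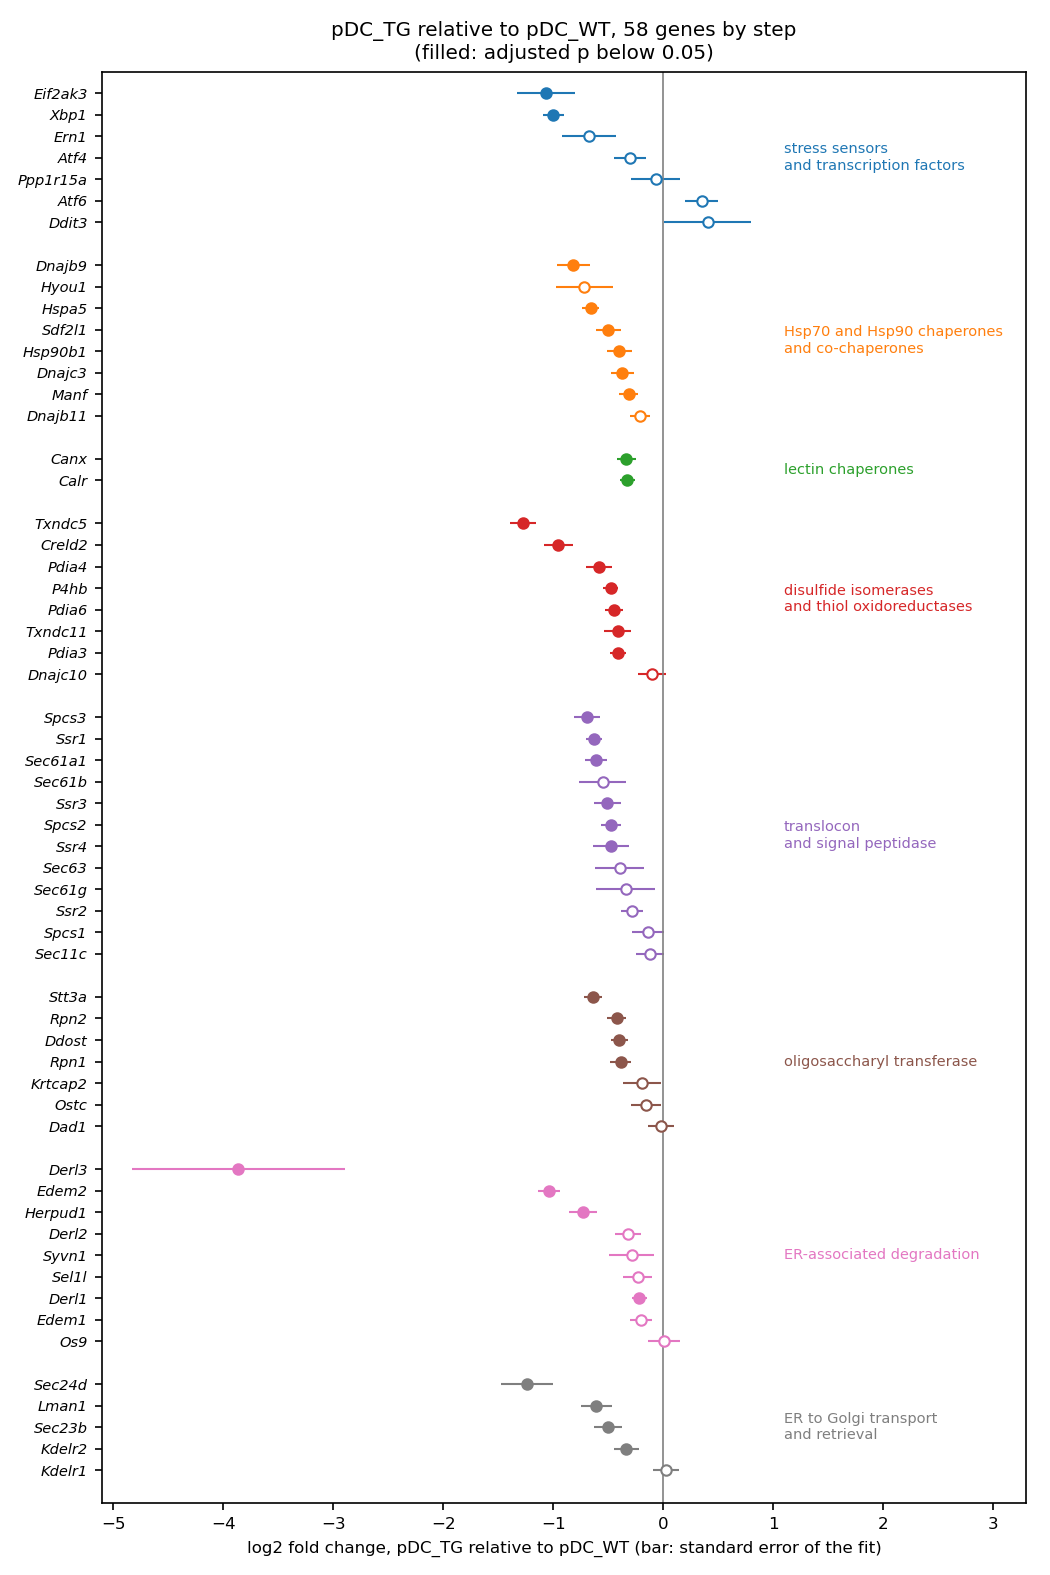
Log2 fold change of each of the 58 genes in TG pDC (pDC_TG, n = 4) relative to control pDC (pDC_WT, n = 8) on the horizontal axis, with genes on the vertical axis grouped by step; bars are the standard errors of the fit and filled points have an adjusted p below 0.05. All 35 filled points lie left of 0, between -0.22 for Derl1 and -3.86 for Derl3.

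The 58 genes also differed among the 3 control populations, most being lowest in control cDC2, while control cDC1 were split around control pDC. In control cDC2 relative to control pDC, 47 genes were lower and 5 higher, against 28.3% and 28.8% of all genes, with a median log2 difference of -0.84. In control cDC1 relative to control pDC, 23 genes were lower and 17 higher, against 30.3% and 30.6% of all genes, with a median of -0.071. Control cDC1 were above control cDC2 for 45 genes and below them for 3, against 22.8% and 23.4% of all genes, with a median of 0.77. TG pDC were below control cDC1 for 31 genes and above them for 11, against 26.6% and 27.1% of all genes. They were above control cDC2 for 34 genes and below them for 10, against 24.3% and 23.9% of all genes. The comparisons with control pDC share those 8 libraries and are not independent of each other. Scaled on total counts alone instead of by TMM, the median of all genes moved to -0.28 for cDC1 against control pDC, -0.16 for cDC2 against control pDC, -0.11 for cDC1 against cDC2, 0.30 for TG pDC against cDC1 and 0.21 for TG pDC against cDC2, and to 0.035 for TG against control pDC. With that scaling the share of higher calls among all called genes went from 50.3% to 36.6% for cDC1 against control pDC, from 50.5% to 66.5% for TG pDC against cDC1 and from 50.5% to 63.2% for TG pDC against cDC2. The ER genes then stood at 34 lower and 12 higher, 17 lower and 17 higher, and 7 lower and 43 higher in these 3 comparisons.

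By group means, control pDC were highest for 27 of the 58 genes, control cDC1 for 24, TG pDC for 4 and control cDC2 for 3. Control cDC2 were lowest for 45 genes, TG pDC for 11, control cDC1 for 2 and control pDC for 0. The 4 genes highest in TG pDC were Atf6, Ddit3, Os9 and Kdelr1, and the 3 highest in control cDC2 were Ppp1r15a, Ssr1 and Edem1. In 17 genes the order from high to low was control cDC1, control pDC, TG pDC, control cDC2. In 13 genes control pDC came first, followed by control cDC1, TG pDC and control cDC2, and in another 13 TG pDC stood second, between control pDC and control cDC1. Of the 35 genes that were lower in TG pDC, 30 were higher in control cDC1 than in control cDC2 (85.7% of the 35 and 66.7% of the 45), in a pair of comparisons with no library in common. Over all genes, 441 of the 927 lower in TG pDC were higher in control cDC1 than in control cDC2 (47.6%). Whatever their call in TG pDC, 45 of the 58 genes (77.6%) and 22.8% of all genes were higher in control cDC1. Whether the 35 genes differ in this from the rest of the 58 was not tested.

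**Figure D2:**
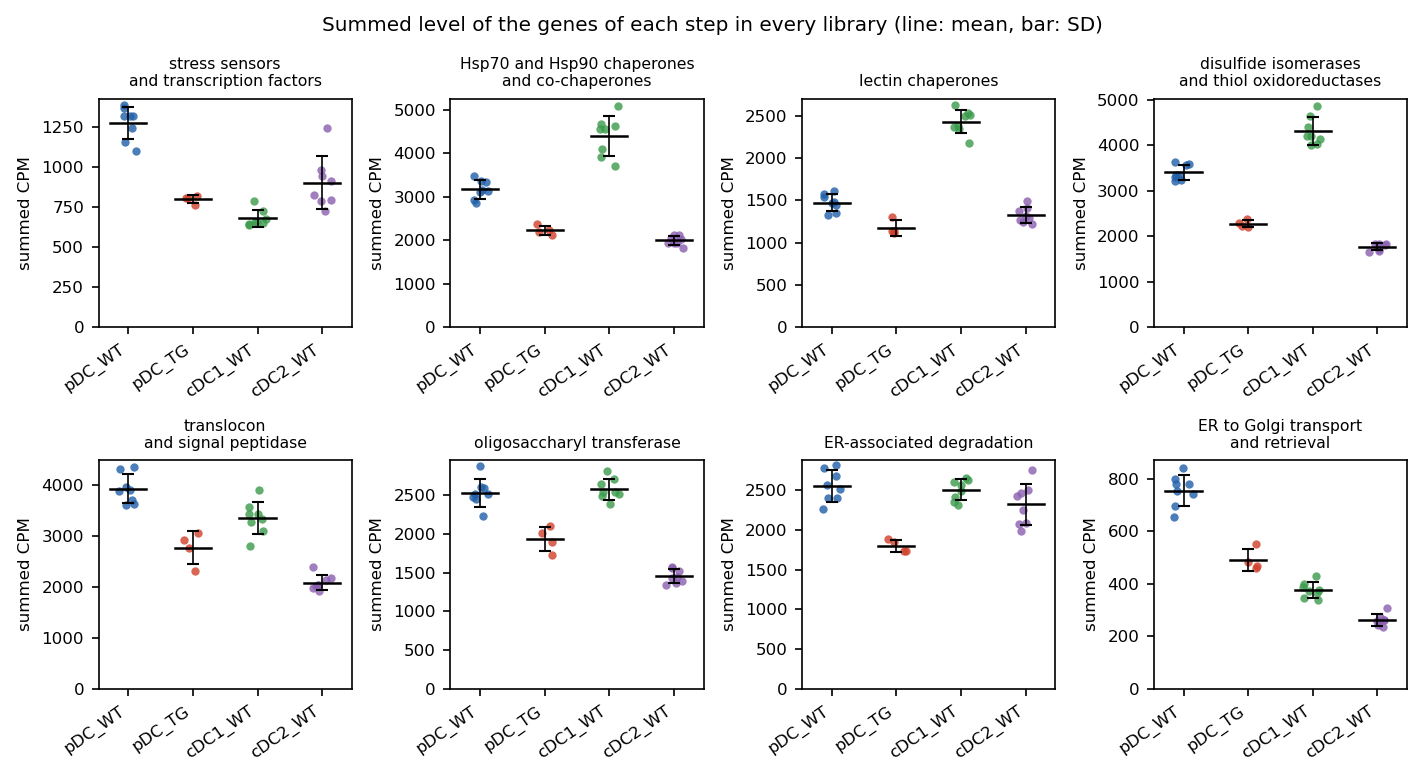
Summed CPM of the genes of each step (vertical axes, starting at 0) in every library of the 4 groups (horizontal axes); lines are means and bars SDs, with n = 8 for pDC_WT, cDC1_WT and cDC2_WT and n = 4 for pDC_TG. The TG pDC mean lies between 62.6% (sensors and transcription factors) and 79.6% (lectin chaperones) of the control pDC mean in every step, the sensor sum being mostly Xbp1 (the other 6 sensors lie at 93.5%), while control cDC1 range from 49.8% (ER to Golgi transport) to 165% (lectin chaperones).

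Promoter sequence shows which of these genes carry the DNA elements through which ATF6 and XBP1 act. RefSeq promoter windows (GRCm38.p6, 250 bases before to 50 after each start) were matched for 47 of the 58 genes by symbol. The ER stress response element, searched on both strands as CCAAT and CCACG with any 9 bases between them, was present in 9 of the 47 genes (19.1%), and in 0.137% of the 27025 genes with a window. It lay 44 to 212 bases before the start, in Hspa5, Hsp90b1 (in 2 copies), Dnajc3, Calr, Canx, Pdia6, Creld2, Syvn1 and Derl3. All of these except Syvn1 were lower in TG pDC, where 29 of the 47 genes with a window (61.7%) were lower. The related element ERSE-II, ATTGG and CCACG with any 1 base between them, was found in Dnajb11, Krtcap2 and Herpud1 (6.38% of the 47 genes, 0.0444% of all genes), of which Herpud1 was lower in TG pDC. The 8-base core TGACGTGG, bound by XBP1 and ATF6 in the unfolded protein response element, was found in Txndc5, Txndc11 and Sec24d (6.38%, and 0.714% of all genes), and all 3 were lower in TG pDC. Its reverse complement begins with CCAC, as does the tail of the other elements, so matches to the letters can overlap, but none of those 3 genes held either of the first 2 elements. A match describes the letters of a window and is no measure of binding. The 58 genes were named for their roles in this machinery, so their share with an element is no independent test.

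The sequences below show the elements in the genes named above, 5′ to 3′ on the strand of the gene, with the element in capitals and the rest in lower case. They stop at the first annotated exon base, or, where the element lies inside an annotated first exon (Hspa5, Sec24d and Txndc11), run only 5 bases to either side. In Calr, Creld2, Derl3 and the second copy of Hsp90b1 the capitals read the element on the opposite strand. The stretches are, in GRCm38.p6, Hspa5 at chr2:34772020-34772048 on the plus strand, Hsp90b1 at chr10:86705510-86705694 on the minus strand, Calr at chr8:84846935-84847181 on the minus strand, Creld2 at chr15:88819396-88819645 on the plus strand, Derl3 at chr10:75893148-75893397 on the plus strand, Herpud1 at chr8:94386179-94386428 on the plus strand, Txndc5 at chr13:38527915-38528164 on the minus strand (1 of 3 RefSeq starts), Sec24d at chr3:123267465-123267482 on the plus strand and Txndc11 at chr16:11134622-11134639 on the minus strand.
Hspa5: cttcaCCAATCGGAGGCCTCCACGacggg
Hsp90b1: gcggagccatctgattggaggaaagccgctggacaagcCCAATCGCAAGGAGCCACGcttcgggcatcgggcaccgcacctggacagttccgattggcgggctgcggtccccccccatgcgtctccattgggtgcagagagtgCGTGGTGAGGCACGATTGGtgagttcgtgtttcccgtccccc
Calr: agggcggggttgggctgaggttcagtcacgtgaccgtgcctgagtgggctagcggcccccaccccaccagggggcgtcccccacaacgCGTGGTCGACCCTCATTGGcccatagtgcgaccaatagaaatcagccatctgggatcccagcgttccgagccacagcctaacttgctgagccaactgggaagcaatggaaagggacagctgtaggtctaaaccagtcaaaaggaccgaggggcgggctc
Creld2: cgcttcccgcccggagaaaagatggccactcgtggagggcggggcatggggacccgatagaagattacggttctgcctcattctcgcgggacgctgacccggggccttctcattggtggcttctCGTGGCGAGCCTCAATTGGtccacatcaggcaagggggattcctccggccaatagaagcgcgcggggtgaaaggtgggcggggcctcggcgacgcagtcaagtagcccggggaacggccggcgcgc
Derl3: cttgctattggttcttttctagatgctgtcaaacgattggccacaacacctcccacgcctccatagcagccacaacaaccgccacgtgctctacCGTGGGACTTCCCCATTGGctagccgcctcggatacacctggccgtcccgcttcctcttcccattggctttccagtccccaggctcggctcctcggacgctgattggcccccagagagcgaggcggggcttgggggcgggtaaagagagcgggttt
Herpud1: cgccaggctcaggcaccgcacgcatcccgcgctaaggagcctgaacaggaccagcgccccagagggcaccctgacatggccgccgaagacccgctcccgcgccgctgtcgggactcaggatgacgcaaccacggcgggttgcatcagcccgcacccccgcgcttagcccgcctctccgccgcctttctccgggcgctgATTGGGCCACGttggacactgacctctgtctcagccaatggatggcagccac
Txndc5: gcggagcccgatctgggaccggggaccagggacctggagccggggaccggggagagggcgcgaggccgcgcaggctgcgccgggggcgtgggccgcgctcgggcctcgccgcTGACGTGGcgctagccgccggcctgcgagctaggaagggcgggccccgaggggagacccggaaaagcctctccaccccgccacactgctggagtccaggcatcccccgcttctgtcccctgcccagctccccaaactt
Sec24d: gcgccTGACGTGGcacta
Txndc11: gtggcTGACGTGGagagt
The matches of the remaining 4 genes to the first element are written in its orientation, with the bases fixed by the search in capitals.
Canx: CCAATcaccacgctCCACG
Pdia6: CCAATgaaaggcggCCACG
Dnajc3: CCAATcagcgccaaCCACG
Syvn1: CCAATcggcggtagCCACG
Interferon-regulatory-factor motifs were also searched. The interferon-stimulated type, GAAA and GAAA with any 2 bases between them, was present in 5 of the 47 genes (10.6%, and 3.99% of all genes), namely Ppp1r15a, Txndc5, Stt3a, Ddost and Sec23b, of which all but Ppp1r15a were lower in TG pDC. The composite of GGAA and GAAA with any 2 bases between them, bound by ETS and IRF factors together, was present in Eif2ak3, which was lower in TG pDC, and Dnajb11, which was not called (4.26%, and 3.16% of all genes).

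Among the sensors and transcription factors, Xbp1 and Eif2ak3 were lower in TG pDC, and the other 5 of the 7 did not pass the test. Xbp1 (chr11:5520659-5525893, GRCm38) encodes the transcription factor of the IRE1 branch, and per kilobase of exon it was the highest of the 7 in every group but control cDC2, where Ppp1r15a was. Its level was 446, 417, 454 and 506 CPM in TG pDC libraries 1 to 4. The lowest, median and highest control libraries were 739, 899 and 1068 CPM in pDC, 254, 273 and 347 CPM in cDC1 and 182, 227 and 255 CPM in cDC2. All 4 TG libraries thus lay in the gap between control pDC and both cDC groups, overlapping neither. TG pDC held 50.1% of the control pDC mean (log2 -0.998 ± 0.098, adjusted p = 8.36e-09), and control cDC1 and cDC2 held 31.0% and 24.5%. The difference between TG pDC and control cDC1 also passed the test (log2 0.69 ± 0.092, adjusted p = 1.7e-07), as did that between cDC1 and cDC2 (log2 0.34 ± 0.077, adjusted p = 0.000441), where the libraries overlapped.

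Ern1, which encodes the IRE1 sensor that splices Xbp1, was measured at 39.6 ± 9.56 CPM in control pDC and 24.8 ± 7.09 CPM in TG pDC (log2 -0.68, adjusted p = 0.065). It was lower in both control cDC groups than in control pDC (log2 -1.30 in cDC1 and -1.39 in cDC2). Eif2ak3, the PERK sensor, was 39.2, 24.4, 13.9 and 19.9 CPM in the TG libraries and ranged from 25.5 to 70.9 CPM in control pDC, so that the groups overlapped. Its difference passed the test (log2 -1.07 ± 0.27, adjusted p = 0.00501), but not when only control libraries 5 to 8 were used (-0.96, adjusted p = 0.0686). Atf6 pointed the other way, at 148 ± 28.8 CPM in TG and 116 ± 24.3 CPM in control pDC (log2 0.35, adjusted p = 0.125), and it passed the test only when control pDC library 3 was left out (0.43, adjusted p = 0.0446).

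Of the 3 genes downstream of PERK, none was called in TG pDC. Atf4, the transcription factor whose translation rises when PERK is active, was 48.5, 57.5, 39.6 and 53.3 CPM in the TG libraries. Control values were 52.3, 60.3 and 72.9 CPM in pDC, 54.4, 61.7 and 89.5 CPM in cDC1 and 25.5, 40.0 and 49.0 CPM in cDC2 (lowest, median and highest). TG and control pDC overlapped and their difference did not pass the test (log2 -0.30 ± 0.14, adjusted p = 0.177), whereas every cDC2 library lay below every control pDC library (log2 -0.65 ± 0.12, adjusted p = 2.24e-05) and every cDC1 library (log2 0.75 ± 0.12, adjusted p = 3.52e-06). Ddit3, which encodes the pro-apoptotic factor CHOP, was low, at 5.23 ± 0.965 CPM in control pDC, 6.92 ± 0.954 in TG pDC, 2.51 ± 1.22 in cDC1 and 3.86 ± 1.19 in cDC2 (TG against control pDC log2 0.40, adjusted p = 0.616). It was lower in cDC1 than in control pDC (log2 -1.05, adjusted p = 0.00787), though not with control libraries 1 to 4 (-1.33, adjusted p = 0.0706) or 5 to 8 alone (-0.81, adjusted p = 0.0552). Ppp1r15a encodes GADD34, the phosphatase subunit that ends the translational block, and was 93.4 ± 27.4 CPM in control pDC, 89.1 ± 20.9 in TG pDC, 193 ± 30.9 in cDC1 and 444 ± 151 in cDC2. It was the gene furthest above control pDC in cDC2 (log2 2.25, adjusted p = 2.9e-11). A list of 14 dissociation and immediate early genes moved alongside it, at 7589 to 11107 CPM in control pDC, 8701 to 9788 in TG pDC, 17948 to 23890.2 in cDC1 and 34083 to 42940.1 in cDC2, and its part in the Ppp1r15a difference was not tested.

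**Figure D3:**
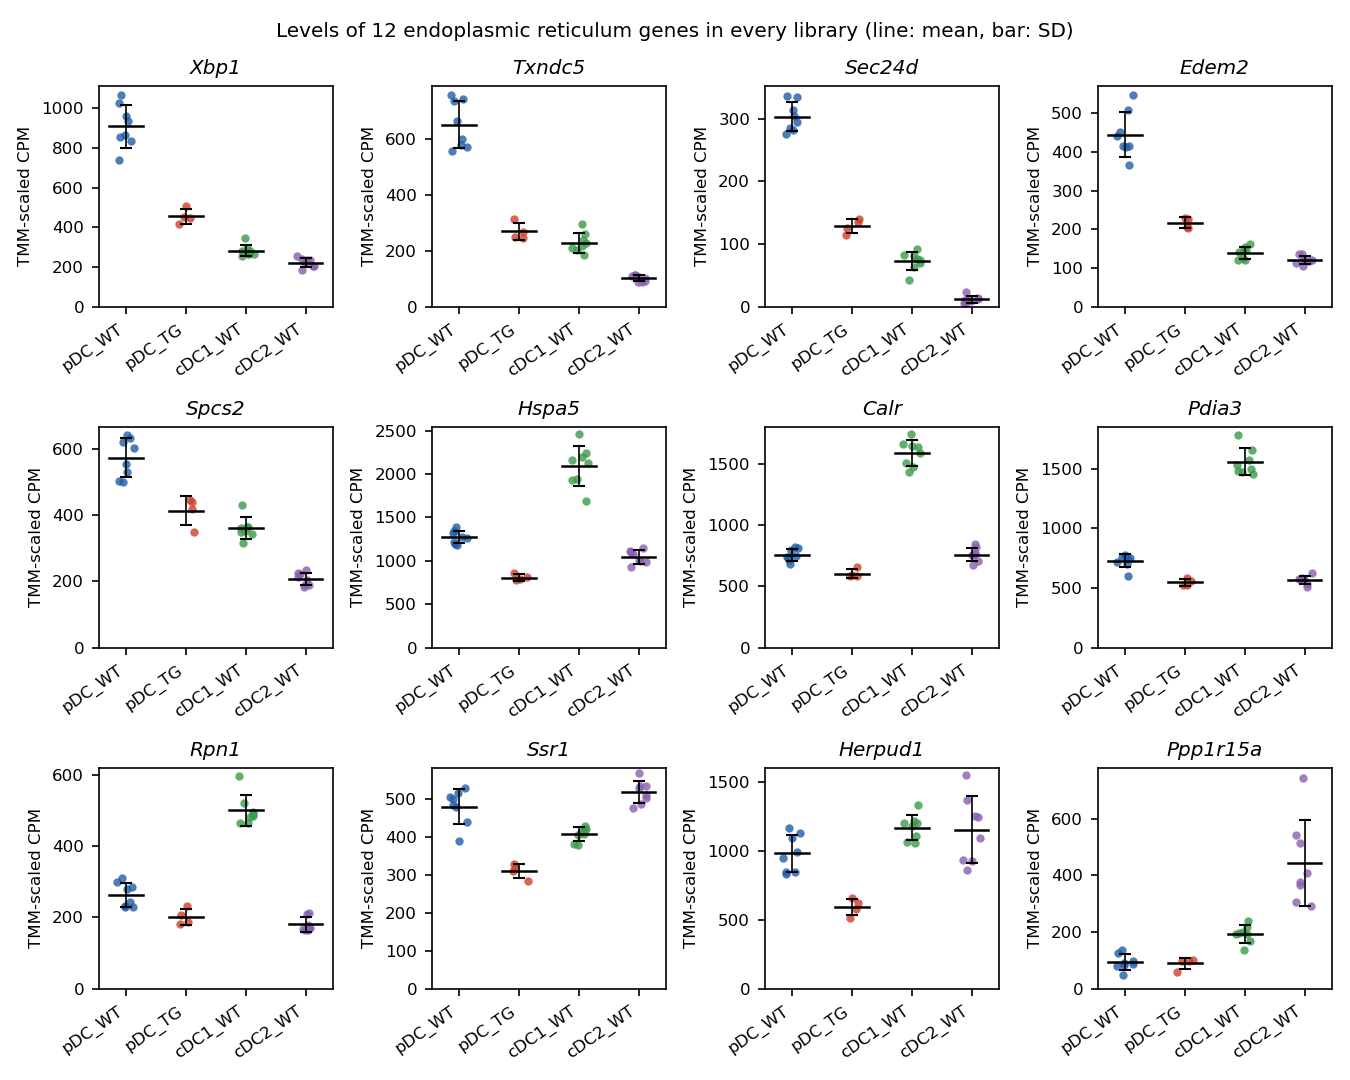
Level of 12 of the genes in every library (vertical axes in CPM, starting at 0) for pDC_WT, pDC_TG, cDC1_WT and cDC2_WT; each point is a library, lines are group means and bars SDs (n = 8, and n = 4 for pDC_TG). For Xbp1, Txndc5, Edem2 and Sec24d the 4 pDC_TG libraries lie below all 8 pDC_WT libraries.

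The Hsp70 and Hsp90 chaperones were lower in TG pDC for 6 of 8 genes, by a median log2 difference of -0.45. Hspa5 (chr2:34771970-34777547) encodes BiP, the ER Hsp70 that holds unfolded chains and keeps the stress sensors inactive. TG libraries held 774, 854, 789.9 and 813 CPM. Control libraries held 1185, 1267 and 1385 CPM in pDC, 1688, 2139.7 and 2457 CPM in cDC1 and 925, 1043 and 1145 CPM in cDC2 (lowest, median and highest). No 2 groups overlapped, and TG pDC were the lowest of the 4, below even cDC2. The test gave log2 -0.66 ± 0.077, adjusted p = 2.44e-07 for TG against control pDC, log2 0.72 ± 0.062, adjusted p = 1.58e-11 for cDC1 against control pDC and log2 -0.37 ± 0.076, adjusted p = 0.000168 for TG pDC against cDC2, the last of which did not pass with total-count scaling (-0.17, adjusted p = 0.0595). Sdf2l1, a cochaperone of BiP that limits aggregation, was likewise lowest in TG pDC, with no overlap between any 2 groups: 609 ± 73.8 CPM in cDC1, 234 ± 22.6 in cDC2, 133 ± 17.6 in control pDC and 93.9 ± 15.8 in TG pDC.

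Manf, a secreted and ER-resident partner of BiP, behaved otherwise. TG libraries were 166, 188, 214 and 217 CPM, and control libraries 223, 234 and 280.2 CPM in pDC, 199, 219 and 248 CPM in cDC1 and 68.8, 79.9 and 87.5 CPM in cDC2. The TG libraries lay just below the control pDC libraries, inside the cDC1 range in part, and far above cDC2. Its difference between TG and control pDC was log2 -0.31 ± 0.087, adjusted p = 0.0127, and it did not pass without TG pDC library 1 (-0.24, adjusted p = 0.083) or with control libraries 1 to 4 alone (-0.25, adjusted p = 0.136). Against control pDC, cDC2 were lower (log2 -1.63 ± 0.072, adjusted p = 2.56e-18), and against cDC2, cDC1 were higher (log2 1.49 ± 0.072, adjusted p = 5.51e-17). Hsp90b1, the ER Hsp90 GRP94 that folds Toll-like receptors and integrins, was 889 ± 106 CPM in control pDC, 675 ± 63.2 in TG pDC, 877 ± 154 in cDC1 and 274 ± 22.7 in cDC2, so that control pDC and cDC1 overlapped (log2 -0.02, adjusted p = 0.865) and cDC2 stood apart (log2 -1.70). Its TG call was lost without TG pDC library 3 (-0.35, adjusted p = 0.0722) and with control libraries 5 to 8 alone (-0.35, adjusted p = 0.137). Of the exon bases of Hsp90b1, 10.3% overlap 1810014B01Rik. Dnajb9 (log2 -0.82), an ERdj4 cochaperone that restrains IRE1, and Dnajc3 (log2 -0.37), the p58IPK inhibitor of PERK, were also lower in TG pDC. The Dnajc3 call was lost without TG pDC library 4 (-0.34, adjusted p = 0.0571) and with control libraries 1 to 4 alone (-0.33, adjusted p = 0.0665). Hyou1 (log2 -0.72, adjusted p = 0.0653) and Dnajb11 (log2 -0.21, adjusted p = 0.141) did not pass. In cDC1 all 8 chaperones were above cDC2, by log2 0.31 (Dnajb9) to 1.68 (Hsp90b1). The Dnajb9 call (adjusted p = 0.0368) was lost in 13 of 24 alternative fits, among them those without control cDC1 library 5, 6, 7 or 8 and without control cDC2 library 1, 2, 4 or 5 (adjusted p from 0.054 to 0.0921).

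Both lectin chaperones, which hold monoglucosylated glycoproteins, were lower in TG pDC. Calr (chr8:84841850-84846934) encodes calreticulin, which also sits in the MHC class I peptide-loading complex. Its TG libraries were 586, 657, 591 and 580.5 CPM, and control libraries 682, 744 and 819 CPM in pDC, 1429, 1611 and 1740.2 CPM in cDC1 and 673, 757 and 843 CPM in cDC2 (lowest, median and highest). TG pDC lay below all other libraries, control pDC and cDC2 shared a range, and cDC1 lay above all. TG against control pDC gave log2 -0.32 ± 0.067, adjusted p = 0.000866, and cDC1 against control pDC log2 1.07 ± 0.055, adjusted p = 7.72e-17. Between cDC2 and control pDC the difference was log2 0.0061 ± 0.054, adjusted p = 0.935, and it turned to -0.14, adjusted p = 0.0267 when libraries were scaled on total counts.

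Canx (chr11:50293961-50325673), the membrane-bound calnexin, was 523, 649.8, 542 and 562 CPM in TG libraries and 614, 717 and 804 CPM in control pDC, with 1 TG library inside the control range. Control cDC1 held 754, 866 and 883 CPM and cDC2 450.3, 552 and 653 CPM. TG pDC were lower than control pDC (log2 -0.33 ± 0.087, adjusted p = 0.00703), though not with control libraries 5 to 8 alone (-0.25, adjusted p = 0.0868), and differed from cDC2 by log2 0.0066 ± 0.085, adjusted p = 0.963. The higher level in cDC1 than in control pDC (log2 0.24 ± 0.07, adjusted p = 0.00437) turned to -0.01, adjusted p = 0.904 with total-count scaling, and did not pass with control libraries 1 to 4 alone (0.19, adjusted p = 0.14).

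Of the 8 disulfide isomerases and thiol oxidoreductases, 7 were lower in TG pDC, all except Dnajc10 (log2 -0.099, adjusted p = 0.722). Txndc5 (chr13:38500079-38528824), a protein disulfide isomerase abundant in secretory cells, showed the lowest adjusted p of the 58 genes. TG libraries held 249, 245, 268 and 314 CPM. Control libraries held 557, 633 and 756 CPM in pDC, 183, 222 and 294 CPM in cDC1 and 88.6, 107 and 115 CPM in cDC2. TG pDC lay below every control pDC library and overlapped cDC1, and cDC2 lay below all. TG pDC held 41.4% of the control pDC mean (log2 -1.27 ± 0.12, adjusted p = 2.34e-09), cDC2 held 15.8% (log2 -2.66 ± 0.096, adjusted p = 1.87e-20), and the difference between TG pDC and cDC1 did not pass the test (log2 0.23 ± 0.11, adjusted p = 0.0741), except without control cDC1 library 3 (0.28, adjusted p = 0.0226), with control libraries 5 to 8 alone (0.30, adjusted p = 0.0321) or with total-count scaling (0.53, adjusted p = 9.38e-05). Of its exon bases, 4.99% overlap Bmp6, and no strand was kept in the counts.

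Pdia3 (chr2:121413775-121438687), the ERp57 isomerase that works with calreticulin and in MHC class I loading, ranked the populations differently. TG libraries were 557, 582, 523 and 527 CPM, and control libraries 603, 749 and 777 CPM in pDC, 1458, 1517 and 1785 CPM in cDC1 and 509, 572 and 629 CPM in cDC2. Control cDC1 lay above all other groups, and TG pDC sat below control pDC and within the cDC2 range. TG pDC differed from control pDC by log2 -0.41 ± 0.069, adjusted p = 6.38e-05, and cDC1 from cDC2 by log2 1.46 ± 0.057, adjusted p = 2.75e-19. Creld2, a disulfide isomerase induced by ER stress, was 52.8, 57.7, 42.5 and 64.9 CPM in TG libraries and 92.7 to 116 CPM in control pDC, a difference of log2 -0.95 ± 0.13, adjusted p = 2.97e-06 and no overlap. The remaining calls were Pdia4 (log2 -0.58), P4hb (log2 -0.48), Pdia6 (log2 -0.44) and Txndc11 (log2 -0.41). The Txndc11 call was lost without TG pDC library 4 (-0.31, adjusted p = 0.131) and with control libraries 5 to 8 alone (-0.34, adjusted p = 0.201). In cDC2 all 8 were lower than in control pDC, and in cDC1 all 8 were higher than in cDC2. Against control pDC, cDC1 were higher for Pdia3, Pdia6, Creld2 and P4hb and lower for Txndc5 and Txndc11, and the P4hb difference (log2 0.22) turned to -0.023, adjusted p = 0.705 with total-count scaling.

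The translocon and signal peptidase genes were lower in TG pDC for 6 of 12, with every one of the 12 differences below 0. Ssr1 (chr13:37966605-37994217), a subunit of the translocon-associated protein complex, was 284, 329.5, 319 and 311 CPM in TG libraries. Control libraries were 389, 492.9 and 531 CPM in pDC, 381, 411 and 431 CPM in cDC1 and 477, 522 and 569 CPM in cDC2 (lowest, median and highest). TG pDC lay below every other library, and Ssr1 was among the few genes highest in cDC2. The tests gave log2 -0.63 ± 0.072, adjusted p = 1.38e-07 for TG against control pDC, log2 -0.35 ± 0.057, adjusted p = 8.14e-06 for cDC1 against cDC2 and log2 0.11 ± 0.057, adjusted p = 0.105 for cDC2 against control pDC.

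Ssr3, another subunit of that complex, followed a different order. TG libraries were 144, 182, 200.2 and 186 CPM, and control libraries 195, 266 and 286 CPM in pDC, 307, 350.2 and 409 CPM in cDC1 and 87.4, 129 and 141 CPM in cDC2. Control cDC1 lay above all, cDC2 below all, and TG and control pDC overlapped at the lower end of the control range. Its TG difference was log2 -0.51 ± 0.13, adjusted p = 0.00486, lost with control libraries 1 to 4 alone (-0.36, adjusted p = 0.147), and cDC1 exceeded cDC2 by log2 1.54 ± 0.10, adjusted p = 1.09e-13. Spcs2 (chr7:99837569-99863462), a signal peptidase subunit, was 349.8, 417, 444 and 439 CPM in TG libraries and 499, 577 and 642 CPM in control pDC, 315, 357 and 431 CPM in cDC1 and 182, 208 and 235 CPM in cDC2. TG pDC lay below every control pDC library and overlapped cDC1 alone. The test gave log2 -0.47 ± 0.09, adjusted p = 0.000311 for TG and log2 -1.47 ± 0.074, adjusted p = 5.12e-17 for cDC2, each against control pDC.

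Sec61a1, the pore of the translocon (log2 -0.61, adjusted p = 4.92e-05), and Spcs3 (log2 -0.69, adjusted p = 6.86e-05) were also lower in TG pDC. The 2 small Sec61 subunits gave log2 -0.55 for Sec61b (adjusted p = 0.0861) and -0.34 for Sec61g (adjusted p = 0.496), with a wide spread among libraries. Sec61g was 36.6, 53.5, 105 and 117 CPM in TG libraries 1 to 4 and 64.8 to 161 CPM in control pDC. Sec61b was 92.9, 123, 185 and 206 CPM and 158 to 321 CPM. In both genes TG libraries 1 and 2 lay below the control range and libraries 3 and 4 inside it. Of all 75-base stretches of their transcripts, 13.7% for Sec61g and 10.1% for Sec61b occur in another gene, so reads of these 2 genes may have been split or lost. Ssr4 (log2 -0.47, adjusted p = 0.0478) was called lower, but lost the call in 14 of 20 alternative fits. It lost its call without TG pDC library 1, 2 or 4 and without control pDC library 1, 2, 5, 7 or 8, at adjusted p from 0.0531 to 0.222. In cDC2, 11 of the 12 genes were lower than in control pDC, all but Ssr1, with Sec11c the lowest at log2 -1.62 and Spcs2 next at -1.47.

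In the oligosaccharyl transferase, the catalytic and ribophorin subunits were lower in TG pDC and the small subunits were not called. Stt3a (chr9:36729344-36767679) encodes the catalytic subunit that acts on chains still entering the translocon. TG libraries were 337, 400.3, 420.2 and 390.2 CPM, and control libraries 523, 598 and 683 CPM in pDC, 453, 508 and 538 CPM in cDC1 and 260.0, 306 and 331 CPM in cDC2 (lowest, median and highest). TG pDC lay in the gap between cDC1 and cDC2, overlapping no other group, while cDC1 and control pDC overlapped. The differences were log2 -0.64 ± 0.081, adjusted p = 8.23e-07 from control pDC, log2 -0.38 ± 0.08, adjusted p = 0.000198 from cDC1 and log2 0.38 ± 0.078, adjusted p = 0.000144 from cDC2, and that from cDC1 did not pass with total-count scaling (-0.086, adjusted p = 0.314).

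Rpn1 (chr6:88084482-88105304), ribophorin I, was 206, 231, 182 and 186 CPM in TG libraries and 229, 261 and 309.6 CPM in control pDC, 464, 487 and 597 CPM in cDC1 and 165, 170.4 and 212 CPM in cDC2. Control cDC1 lay far above the rest, and TG pDC overlapped both control pDC and cDC2 at their edges. TG against control pDC gave log2 -0.39 ± 0.098, adjusted p = 0.00586, and cDC1 against cDC2 log2 1.47 ± 0.08, adjusted p = 8.71e-16. Rpn2 (log2 -0.42, adjusted p = 0.000993) and Ddost (log2 -0.40, adjusted p = 0.000259) were lower as well. Dad1, Ostc and Krtcap2 gave log2 -0.021, -0.15 and -0.19, none of which passed the test. In TG libraries 1 to 4, Dad1 was 140, 144, 204 and 204 CPM and Krtcap2 79.7, 86.9, 152 and 158 CPM. Control pDC ranged from 153 to 214 CPM for Dad1 and from 102 to 170 CPM for Krtcap2. For both genes TG libraries 1 and 2 lay below the control range and libraries 3 and 4 inside it. For Ostc only TG library 1 (173 CPM) lay below the control range of 196 to 294 CPM. Of the exon bases of Krtcap2, 15.7% overlap Trim46, so its value is uncertain, as is that of Spcs1 (16.3% shared with Glt8d1). Rpn2 shares 5.46% of its exon bases with Mroh8. All 7 subunits were lower in cDC2 than in control pDC, from log2 -0.55 (Rpn1) to -1.68 (Krtcap2).

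In ER-associated degradation 4 of 9 genes were lower in TG pDC, and the log2 differences ran from -3.86 (Derl3) to 0.0076 (Os9). Edem2 (chr2:155701677-155729475) encodes the mannosidase-family protein that starts trimming of glycans on misfolded proteins. TG libraries were 207, 202, 228 and 229 CPM, and control libraries 367, 429 and 549 CPM in pDC, 119.6, 144 and 162 CPM in cDC1 and 106, 120.1 and 136 CPM in cDC2 (lowest, median and highest). TG pDC lay between control pDC and both cDC groups with no overlap on either side, as Xbp1 did. TG pDC held 48.7% of the control pDC mean (log2 -1.04 ± 0.10, adjusted p = 5.71e-09), cDC1 31.4% (log2 -1.67 ± 0.08, adjusted p = 1.34e-17) and cDC2 27.2% (log2 -1.88 ± 0.081, adjusted p = 1.11e-18). Its paralog Edem1 was not called in TG pDC (log2 -0.20, adjusted p = 0.19) and was highest in cDC2 (log2 0.30 from control pDC, and 0.15, adjusted p = 0.122 with total-count scaling).

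The 3 derlins, membrane proteins of the retrotranslocation channel, differed in level and in the order of the populations. Derl2 was 72.2, 80.7, 101 and 79.6 CPM in TG libraries, and 82.6, 107 and 113 CPM in control pDC, 113, 147 and 185 CPM in cDC1 and 57.5, 78.0 and 96.6 CPM in cDC2. TG pDC overlapped control pDC and cDC2, and cDC1 lay above cDC2 in every library. The TG difference did not pass (log2 -0.32 ± 0.12, adjusted p = 0.0734), while cDC1 exceeded cDC2 by log2 0.93 ± 0.097, adjusted p = 2.36e-09. Derl1 was called lower in TG pDC (log2 -0.22, adjusted p = 0.0364), and the call was lost in 12 of 20 alternative fits, among them those without TG pDC library 1, 2 or 4 and without control pDC library 2, 6 or 7 (adjusted p from 0.0506 to 0.176). Derl3, the derlin most tied to XBP1 in secretory cells, was rare: 0.422, 0, 0 and 0 CPM in TG libraries, with 11 counts in the group, and 0.55, 1.18 and 3.49 CPM in control pDC, with 300 counts. A library could hold up to 0.0957 to 0.115 CPM of it (3 counts) and still show 0 counts in TG pDC. Every TG library lay below every control pDC library (fitted log2 -3.86 ± 0.97, adjusted p = 0.0054), and cDC1 held the most, at 7.23 ± 1.88 CPM (log2 2.21, adjusted p = 0.00334). The cDC1 difference in Derl3 was not called with control libraries 1 to 4 alone (2.13, adjusted p = 0.0956) or 5 to 8 alone (2.28, adjusted p = 0.0877).

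Herpud1, an adaptor of the degradation complex with the highest level per kilobase of this step, was 514, 654, 622 and 576 CPM in TG libraries. It ranged from 829.2 to 1161 CPM in control pDC, 1053 to 1329 CPM in cDC1 and 861 to 1547 CPM in cDC2. TG pDC lay below all libraries of the 3 control groups, which overlapped one another, and the difference from control pDC was log2 -0.73 ± 0.13, adjusted p = 0.000101. The ubiquitin ligase Syvn1 (log2 -0.29), its partner Sel1l (log2 -0.23) and the lectin Os9 (log2 0.0076) did not pass in TG pDC. Sel1l was higher in both cDC groups than in control pDC (log2 0.84 in cDC1 and 0.57 in cDC2), and Os9 was lower in both (log2 -0.52 and -0.52), though in cDC2 not with control libraries 5 to 8 alone (-0.38, adjusted p = 0.0648).

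Of the 5 genes of ER to Golgi transport and retrieval, 4 were lower in TG pDC. Sec24d (chr3:123267455-123365641) encodes a cargo-binding subunit of the COPII coat. TG libraries held 140.2, 125, 135 and 114 CPM. Control libraries held 276, 299.6 and 336 CPM in pDC, 42.2, 75.2 and 91.3 CPM in cDC1 and 5.94, 10.8 and 23.5 CPM in cDC2 (lowest, median and highest). The 4 groups formed a ladder with no overlap, from control pDC through TG pDC and cDC1 to cDC2. The steps were log2 -1.24 ± 0.23, adjusted p = 0.000294 for TG against control pDC, log2 0.82 ± 0.22, adjusted p = 0.00193 for TG pDC against cDC1 and log2 2.65 ± 0.20, adjusted p = 1.65e-12 for cDC1 against cDC2. Against control pDC, cDC2 held 3.82% (log2 -4.71 ± 0.21, adjusted p = 7.47e-18), the greatest difference of the 58 genes in that comparison. Lman1, the ERGIC-53 cargo receptor for glycoproteins (log2 -0.61), and Sec23b, the partner of Sec24 in the coat (log2 -0.50), were also lower in TG pDC. The retrieval receptor Kdelr2 was called (log2 -0.34, adjusted p = 0.0445) but lost the call in 13 of 20 alternative fits, among them those without TG pDC library 1, 2 or 4 and without control pDC library 2, 6, 7 or 8 (adjusted p from 0.0565 to 0.171). Kdelr1 was 134 ± 16.8 CPM in control pDC and 136 ± 18.5 CPM in TG pDC (log2 0.022, adjusted p = 0.96), and lower in both cDC groups (log2 -0.95 in cDC1 and -0.95 in cDC2).

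**Figure D4:**
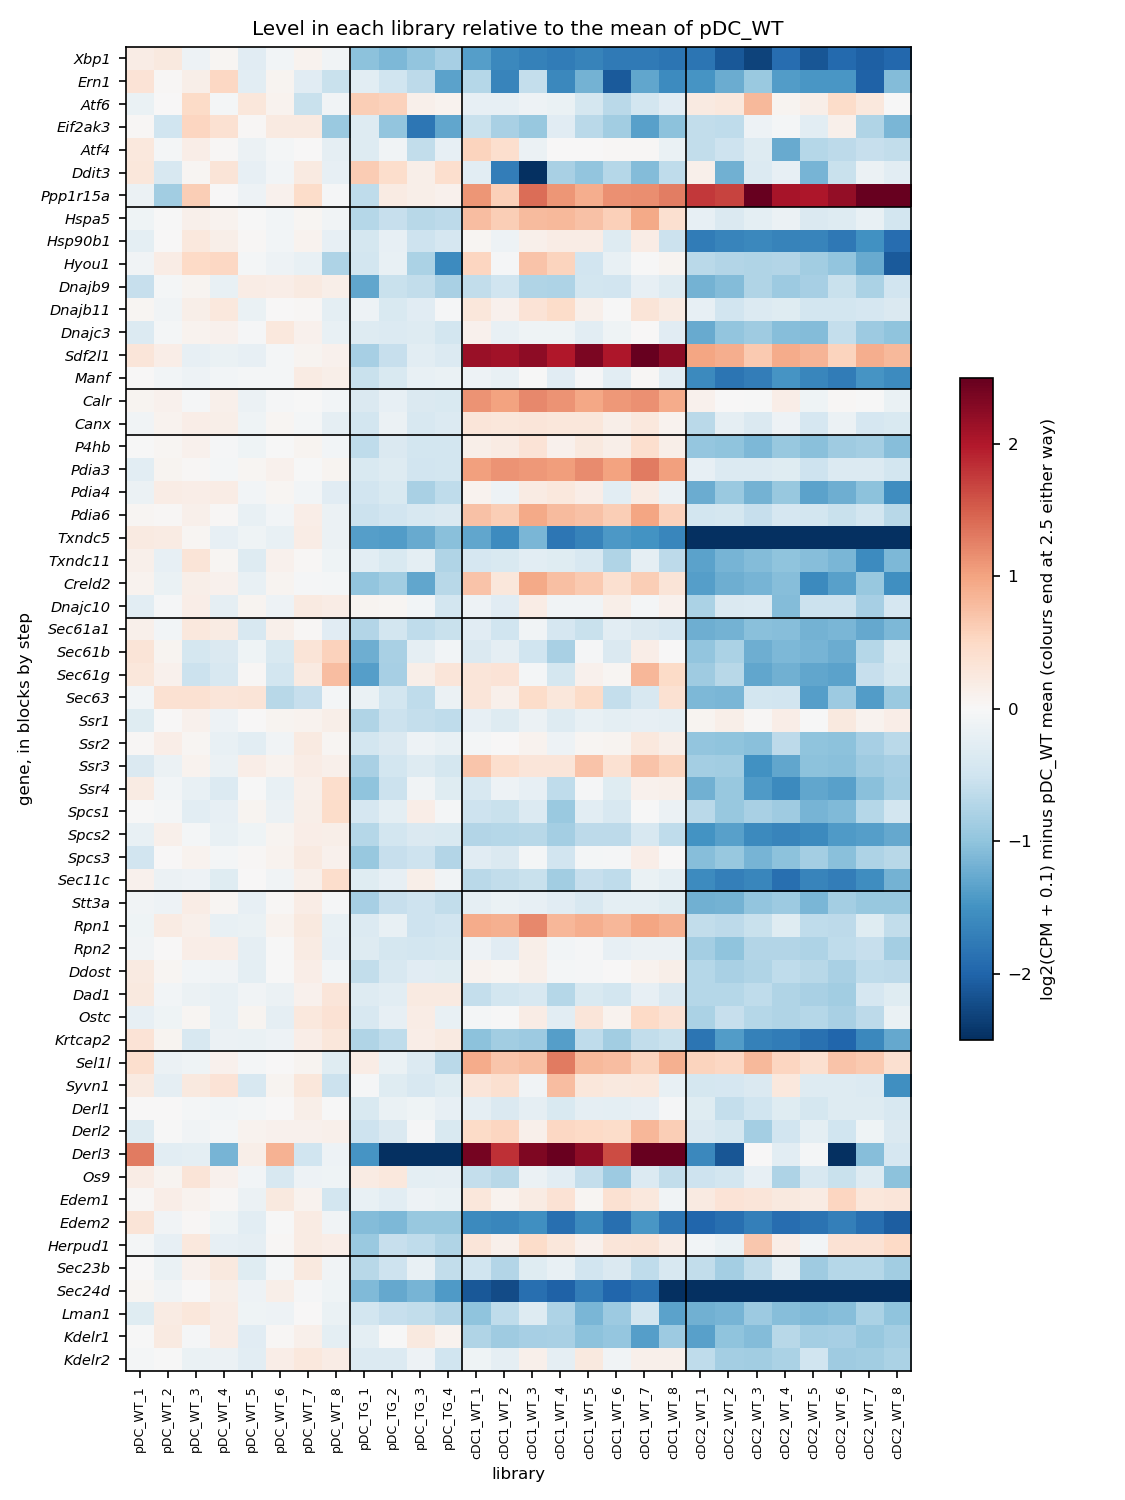
Level of each of the 58 genes (rows, in blocks by step) in each of the 28 libraries (columns), as log2(CPM + 0.1) minus the mean of the 8 pDC_WT libraries, red above it and blue below it. The pDC_TG columns are blue in most rows, the cDC2_WT columns more deeply so, and the cDC1_WT columns hold both red rows (Sdf2l1, Calr, Pdia3, Derl3) and blue rows (Xbp1, Txndc5, Edem2, Sec24d).

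Across steps, the summed level in control cDC1 relative to control pDC depended on the step. The lectin chaperones summed to 165% of control pDC, the Hsp70 and Hsp90 chaperones to 139% and the disulfide isomerases to 127%. The oligosaccharyl transferase stood at 102% and degradation at 98.1%, whereas translocon and signal peptidase reached 85.4%, sensors 53.3% and ER to Golgi transport 49.8%. In cDC2 the sums ran from 34.7% (ER to Golgi transport) to 90.9% (degradation). In TG pDC they ran from 62.6% (sensors) to 79.6% (lectin chaperones). Single genes carried some of these sums: without Xbp1 the other 6 sensors summed to 93.5% of control pDC in TG pDC, 108% in cDC1 and 185% in cDC2. Without Sec24d the other 4 ER to Golgi genes summed to 79.9% in TG pDC, 67.1% in cDC1 and 55.5% in cDC2. The difference between steps was not tested.

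Scaled by the length of all annotated exons of a gene, a rough way to compare genes, Herpud1 led in control pDC at 419.9 CPM per kilobase. Ddost followed at 332, P4hb at 330.1, Hspa5 at 301 and Xbp1 at 280.2. That length can exceed the mRNA present, which lowers the value of a gene, and the annotation used for counting is not given. In TG pDC the same measure gave 254 for Herpud1, 252 for Ddost, 237 for P4hb, 191 for Hspa5 and 140.3 for Xbp1. In cDC1 the first 5 were Calr, Sdf2l1, Herpud1, Pdia3 and Hspa5, at 550.4, 549.9, 500.0, 496 and 495 CPM per kilobase, with Xbp1 at 87.0. In cDC2, Herpud1 stood at 493.4, ahead of Calr at 264 and Hspa5 at 247. The sensor genes were low on this scale, Ern1 at 4.84 and Eif2ak3 at 8.46 CPM per kilobase in control pDC.

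Other genes of the pathway, outside the 58, had mostly small differences in TG pDC. The shares over all genes tested, for the counts that follow, were 7.04% lower and 7.72% higher. Of 32 further folding, glycan and oxidation factors tested, 9 were lower and 1 higher, with a median log2 difference of -0.22 (all genes 0). Stt3b, the second catalytic subunit of the oligosaccharyl transferase, went from 351 ± 50.9 CPM to 200.3 ± 23.8 CPM (log2 -0.81, adjusted p = 1.25e-06), its partner Magt1 from 235 ± 22.3 CPM to 143 ± 13.4 CPM (log2 -0.71), the folding sensor Uggt1 from 358 ± 56.4 CPM to 191 ± 36.3 CPM (log2 -0.90) and the oxidase Ero1lb from 98.9 ± 14.9 CPM to 62.3 ± 12.2 CPM (log2 -0.67). Of 13 signal recognition particle and translocation factors, 3 were lower and 0 higher (median 0.032), namely Srpr (log2 -0.35), Srprb (log2 -0.36) and Tram1 (log2 -0.29), and Srp9, next by p, gave log2 -0.31 (adjusted p = 0.171). Of 21 further degradation factors, 4 were lower and 2 higher (median 0.031): among others, the mannosidase Man1b1 (log2 -0.65) and Vimp (log2 -0.39) were lower, and the ubiquitin-conjugating enzyme Ube2j1 was higher (log2 0.54). Of 32 further ER to Golgi factors, 6 were lower and 0 higher (median -0.24), with Ergic1 (log2 -0.91), Tmed3 (log2 -0.48), Cope (log2 -0.39) and Tmed10 (log2 -0.35) first by p. Of 18 further stress signalling genes, 4 were lower and 0 higher (median -0.13), namely Creb3 (log2 -0.59), Atf6b (log2 -0.70), Ppp1r15b (log2 -0.48) and Creb3l2 (log2 -0.73).

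Genes described as targets of the PERK and IRE1 branches made up 2 more lists, and the activity of the branches was not measured. Of 22 targets of ATF4 and CHOP, 3 were lower and 3 higher in TG pDC, with a median log2 difference of 0.0041. Over all genes tested, 7.04% were lower and 7.72% higher in TG pDC. Atf3 rose from 21.7 ± 6.78 CPM to 83.7 ± 31.8 CPM (log2 1.95, adjusted p = 8.73e-06) and Ddit4 from 5.76 ± 1.36 CPM to 18.2 ± 5.21 CPM (log2 1.66), whereas Cebpb fell from 73.5 ± 24.4 CPM to 18.6 ± 7.11 CPM (log2 -1.98) and the amino acid transporter gene Slc7a5 from 90.8 ± 22.2 CPM to 61.0 ± 11.7 CPM (log2 -0.57). Atf3 is also one of the 14 dissociation and immediate early genes. Against control pDC, 13 of the 22 targets were higher and 7 lower in cDC1, and 13 higher and 6 lower in cDC2, with medians of 0.82 and 0.54. The shares over all genes were 30.6% higher and 30.3% lower in cDC1, and 28.8% and 28.3% in cDC2. Of 7 tested mRNAs described as substrates of IRE1-dependent decay, 3 were lower in TG pDC and 0 higher (median -0.31): Tapbp, the tapasin of MHC class I loading, went from 1750.2 ± 242 CPM to 1296 ± 147 CPM (log2 -0.43), Itgb2 from 502 ± 59.7 CPM to 376 ± 48.8 CPM (log2 -0.42) and Ergic3 from 142 ± 14.7 CPM to 114 ± 9.94 CPM (log2 -0.31).

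Within groups the 58 genes were measured with similar precision, at a median coefficient of variation of 13.2% in control pDC, 12.9% in TG pDC, 12.4% in cDC1 and 13.5% in cDC2. The steadiest were Derl1 in control pDC (4.75%), Edem1 in TG pDC (3.86%), Ssr1 in cDC1 (4.42%) and Ddost in cDC2 (4.91%). The most variable was Derl3 in all groups except cDC1, where it was Ddit3 (48.6%).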

How the data were processed

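RNA was sequenced from 28 sorted mouse dendritic cell libraries made with SMART-Seq v4, a protocol that amplifies cDNA by PCR and keeps no strand. The authors deposited whole-number counts per gene symbol and library, whose differing totals show no normalization. Per the submitters' processing notes, the tools were Trimmomatic 0.35, FastQC 0.11.4, SAMtools 0.1.18 and TopHat2 2.1.0, and the build was mm10. Which tool counted, and with which annotation, is not given in the sources used here. In each table, the 5 summary lines, such as unassigned (8.23 to 18.7% of all counts) and ambiguous (1.04 to 1.57%) reads, were left out.

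Counts were tested with edgeR 4.0.16 in R 4.3.3: filterByExpr by group (minimum count 10, minimum total 15), TMM scaling, a quasi-likelihood fit over all 4 groups, two-sided tests and Benjamini-Hochberg adjustment over 13159 genes at 0.05. Errors of log2 differences are standard errors of that fit, those of CPM are SDs. The procedure was tested on simulated data. DESeq2 1.42.0, other scalings, no filter, the compared groups alone, control libraries 1 to 4 or 5 to 8, a replicate block and leaving out each library were the alternatives. Figures were drawn with Python 3.11.15, pandas 2.3.3 and matplotlib 3.10.9. Positions and exon lengths are those of GENCODE M21 (GRCm38), and promoters those of RefSeq.

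The 58 genes and all lists were chosen with earlier results of these data known. Except where the text says otherwise, genes given library by library were Xbp1 and, per step, the lowest adjusted p in TG against control pDC, cDC2 against control pDC and cDC1 against cDC2. From each list of other pathway genes up to 4 were named by p, with the same exception, by group means or log2 differences. 1 gene of these lists is not reported here. Sequencing depth and number of libraries set the precision. SDs and standard errors hold the spread between libraries, and the floor given for Derl3 covers counting error only.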

Additional observations from a re-analysis of the deposited data

Results flagged for a closer look

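Each gene's highest and lowest library in each group was set against the rest of its group by Dixon's test at the 95% level. Of 232 gene and group sets, 18 (7.76%) had a library past the limit, and chance flags about 1 in 20. In control pDC these were Pdia3 in library 1 (603 CPM, others 702 to 777), Spcs3 in library 1 (583 CPM, others 787 to 955) and Derl1 in library 7 (427 CPM, others 369 to 392). In TG pDC these were Ppp1r15a in library 1 (57.99 CPM, others 96.8 to 103), Dnajc3 in library 4 (186 CPM, others 201 to 204), Calr in library 2 (657 CPM, others 580.5 to 591) and Rpn2 in library 1 (336 CPM, others 304 to 309). In control cDC1 these were Xbp1 in library 1 (347 CPM, others 254 to 297), Spcs2 in library 7 (431 CPM, others 315 to 365), Rpn1 in library 3 (597 CPM, others 464 to 521), Sel1l in library 4 (291 CPM, others 175 to 225) and Derl1 in library 8 (378 CPM, others 298 to 336). In control cDC2 these were Sec11c in library 8 (143 CPM, others 88.2 to 110.4), Ostc in library 8 (204 CPM, others 132 to 154), Edem1 in library 6 (364 CPM, others 292 to 320.4), Sec23b in library 4 (129.9 CPM, others 82.7 to 101) and Sec24d in library 3 (23.5 CPM, others 5.94 to 14.2). Derl3 reached 0.422 CPM in TG pDC library 1 and had 0 counts in the other 3. TG pDC library 1 was past the limit for 3 genes and control pDC library 1 and control cDC2 library 8 for 2 each.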

How the results depend on the processing

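In TG against control pDC, 39 of the 58 genes kept their call or lack of it under all 20 alternatives, 10 lost a call in some, 9 gained one and 0 reversed, and 25 genes were called lower in all 21 fits. The count of lower genes ran from 31 (without TG pDC library 4) to 36 when 1 library was left out, and was 40 by DESeq2, 32 with total-count scaling, 32 without a filter on low counts, 33 and 29 with control libraries 1 to 4 and 5 to 8, and 33 in a fit of these groups alone. The count of higher genes was 0 to 1 when 1 library was left out, the 1 being Atf6 without control pDC library 3. Genes higher in cDC1 than control pDC numbered 11 with control libraries 1 to 4, and those higher in cDC2 numbered 3 with total-count scaling. That scaling gave 17 lower and 17 higher genes in TG pDC against cDC1, and turned the sign of log2 differences from cDC1 to control pDC for Dnajb11 (-0.018), Canx (-0.0105), P4hb (-0.023), Ssr2 (-0.20), Ddost (-0.20) and Edem1 (-0.062), from cDC2 to control pDC for Calr (-0.14), and from TG pDC to cDC1 for Dnajc3 (0.047) and Sec61a1 (0.053). The scaling shifts all genes of a library by the same factor, by its construction. With the replicate number as a block, 36 genes were lower in TG than control pDC and 0 higher, with 23 lower and 17 higher in cDC1 and 48 lower and 6 higher in cDC2 against control pDC, and 46 higher in cDC1 than cDC2. Control groups share numbers 1 to 8, and each library deviated most like its own number (8 of 8), with median correlations of 0.105 to 0.126 for the 3 pairs of control groups and 5, 5 and 7 of 8 over 0.1. The lowest was 0.0492, while the medians between unlike numbers of control groups were -0.0216 to -0.0106. TG and control pDC of the same number had -0.0404 to 0.0406. The labels do not tie the numbers to mice, and they were not used as pairs. The main fit thus treated control libraries of the same number as independent, and the block above is the alternative. At this depth, Derl3 is the gene whose level is limited by its counts.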

Other observations

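The genes with the widest spread in TG pDC among those with over 30 CPM included several that encode small subunits. Sec61b was measured at 92.9, 123, 185 and 206 CPM in TG pDC libraries 1 to 4 and at 321 CPM in control pDC library 8. Sec61g was measured at 36.6, 53.5, 105 and 117 CPM in TG pDC libraries 1 to 4 and at 161 CPM in control pDC library 8. Ssr4 was measured at 66.8, 92.3, 126 and 109 CPM in TG pDC libraries 1 to 4 and at 183 CPM in control pDC library 8. Krtcap2 was measured at 79.7, 86.9, 152 and 158 CPM in TG pDC libraries 1 to 4 and at 164 CPM in control pDC library 8. Libraries 1 and 2 were the lowest TG pDC libraries for Sec61b, Sec61g, Ssr4 and Krtcap2 alike. Control pDC library 8 was the highest control pDC library for Sec61b, Sec61g and Ssr4. These genes were picked after their values were seen, and the spread was not tested against any property of the libraries.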
